A study of Mus musculus with 48 samples.

Results

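Thymosin beta 4 and the Arp2/3 complex act on how a cell's actin is held as monomers or built into branched filaments. ABI2 helps to build an activator of that complex. The rows described were Tmsb4x and Abi2 and every gene of the nCounter Glial panel whose symbol begins with Arpc. That gave 5 of 757 genes: Tmsb4x, Arpc1a, Arpc2, Arpc5l and Abi2. They were selected on their log2 differences between the genotypes in these same mice, so those differences are described here and not tested. Cortex RNA of 24 mice, identified by animal number, was run on the Glial and the Neuropathology panel, 48 samples in all. The nCounter method counts RNA molecules directly through coloured barcode probes. The mice were 7.5 months old and all carried the 5xFAD transgenes, human genes with familial Alzheimer disease mutations that drive early amyloid plaques. The groups were 6 female and 6 male 5xFAD mice heterozygous for a Plcg2 knockout (5xFAD Plcg2 KO+/-, written Plcg2+/- below), and 6 female and 6 male 5xFAD mice with no Plcg2 knockout in their label. Strain background was not given in the sources used here. The whole cortex was measured, so fewer cells of a type and less RNA per cell cannot be told apart.

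Actin exists as single monomers and as filaments. Thymosin beta 4 holds monomers back from polymerizing. The Arp2/3 complex starts a new filament as a branch on an old one, and it does so when switched on by activators such as the WAVE complex, which ABI2 helps to build together with WAVE1 (gene Wasf1), CYFIP2 and NAP1 (gene Nckap1). In brain, Tmsb4x transcripts are abundant in microglia, whose moving processes and engulfment of debris run on branched actin, while CYFIP2, NAP1 and WAVE1 are prominent in neurons and their dendritic spines. PLCG2 is a phospholipase that immune cells, microglia among them, use to pass on signals from surface receptors.

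Depth differed between the groups. Total counts recovered from the values of the Glial panel ran from 1773331 to 1897264 in Plcg2+/- females and from 953461 to 1239109 in 5xFAD females, without overlap, and from 1360757 to 1814975 in Plcg2+/- males and from 1428825 to 1775622 in 5xFAD males. The lowest recovered count of any of the 5 genes in any mouse was 683, for Arpc5l, where counting error alone is 3.83%, or 0.055 on the log2 scale. On the Neuropathology panel the totals were 1220459 to 1603006 in Plcg2+/- females and 528033 to 651615 in 5xFAD females, and 1119119 to 1587858 in Plcg2+/- males and 865095 to 1274953 in 5xFAD males. Animal numbers lay between 3 and 51 for Plcg2+/- and between 1177 and 1270 for 5xFAD, so cohort and genotype cannot be told apart. Plcg2+/- female 12 and Plcg2+/- male 3 stood apart. They held the highest or lowest value of their group in 62.6% and 67.0% of the 757 genes, against 18.6% to 45.3% for the other mice. Plcg2 itself was on neither table.

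Tmsb4x, encoding thymosin beta 4, lies on chromosome X (GRCm38, 167207093 to 167213479). Its level was 13.99 to 14.28 with a median of 14.14 in Plcg2+/- females, against 14.83 to 15.30 with a median of 15.17 in 5xFAD females, in log2 normalized counts. In males it was 14.23 to 14.52 with a median of 14.36 in Plcg2+/- mice, against 14.85 to 15.09 with a median of 14.98 in 5xFAD mice. The genotypes did not overlap in either sex, with a gap of 0.55 in females and 0.33 in males between the nearest mice. How many genes of the panel separate in this way was not counted, here or for the rows below. The mean was 14.15 ± 0.10 in Plcg2+/- females and 15.10 ± 0.18 in 5xFAD females (SD, n = 6 each), a difference of -0.95 ± 0.073 (SE of the fit). It was 14.37 ± 0.10 in Plcg2+/- males and 14.98 ± 0.089 in 5xFAD males (SD, n = 6 each), a difference of -0.62 ± 0.073. Over both sexes the difference of -0.78 ± 0.051 corresponds to a level of 0.581 times that of 5xFAD mice.

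The same held for quantities that do not depend on how the mice were scaled to each other. Tmsb4x took 1.21% to 1.46% of all counts of the panel in Plcg2+/- females and 2.10% to 2.80% in 5xFAD females, and 1.21% to 1.41% in Plcg2+/- males and 1.78% to 2.06% in 5xFAD males. By level it ranked 7 to 11 among the 757 genes of a mouse in Plcg2+/- females and 2 in every 5xFAD female. In males it ranked 7 to 12 in Plcg2+/- mice and 2 to 4 in 5xFAD mice.

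**Figure D1:**
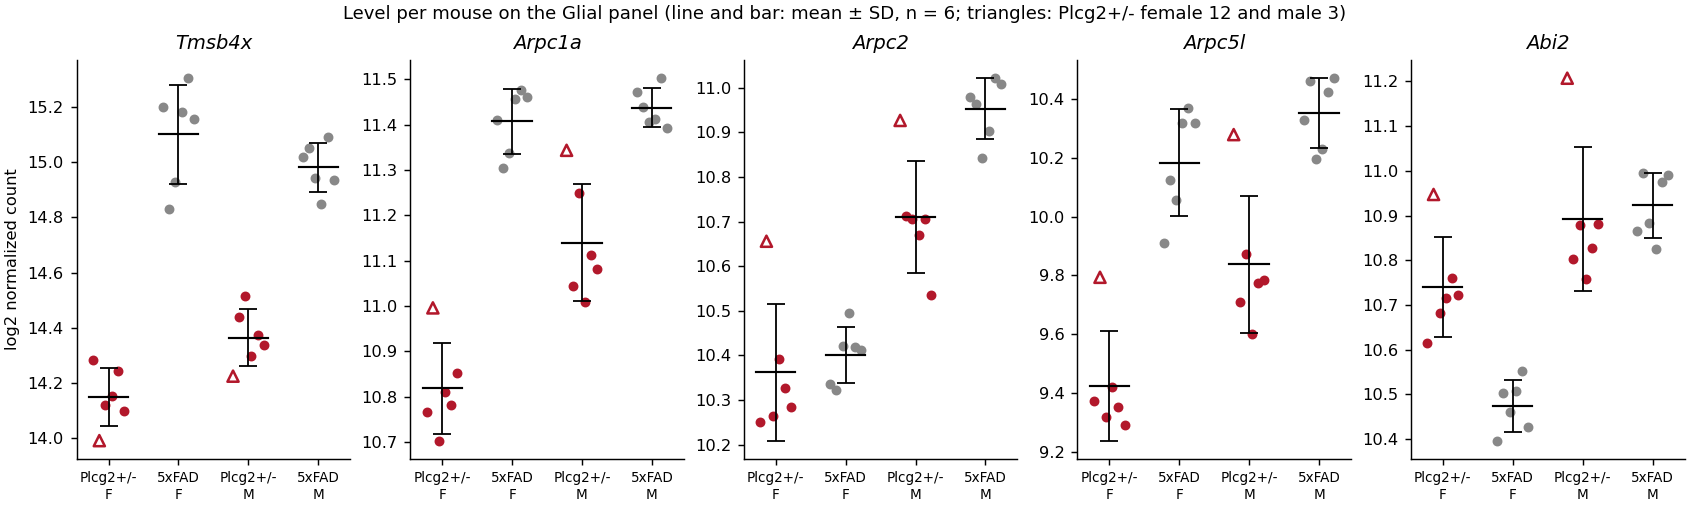
Log2 normalized counts of the 5 genes in each of 24 mice on the Glial panel, with the mean and SD of each group of 6. Triangles mark Plcg2+/- female 12 and Plcg2+/- male 3, which lie highest of their groups for the Arpc genes and Abi2 and lowest for Tmsb4x. Each axis spans the range of its own gene and does not start at 0.

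Of the 3 Arp2/3 rows, Arpc5l differed most. It encodes the second form of the smallest subunit, an alternative to ARPC5, and lies on chromosome 2 (39008066 to 39015878). Its level was 9.29 to 9.79 with a median of 9.36 in Plcg2+/- females, against 9.91 to 10.37 with a median of 10.22 in 5xFAD females. In males it was 9.60 to 10.28 with a median of 9.78 in Plcg2+/- mice, against 10.20 to 10.47 with a median of 10.38 in 5xFAD mice. The genotypes were separate in females and overlapped in males, where male 3 alone reached into the range of the 5xFAD mice. The mean was 9.43 ± 0.19 in Plcg2+/- females and 10.18 ± 0.18 in 5xFAD females, and 9.84 ± 0.23 in Plcg2+/- males and 10.35 ± 0.12 in 5xFAD males (SD, n = 6 each). The differences were -0.76 ± 0.10 in females and -0.51 ± 0.10 in males (SE), and -0.83 and -0.60 without female 12 and male 3.

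Arpc1a encodes one of the exchangeable WD40-repeat subunits of the complex, to which ARPC1B is the alternative (chromosome 5, 145083869 to 145108756). Its level was 10.70 to 11.00 with a median of 10.80 in Plcg2+/- females, against 11.30 to 11.48 with a median of 11.43 in 5xFAD females. In males it was 11.01 to 11.34 with a median of 11.10 in Plcg2+/- mice, against 11.39 to 11.50 with a median of 11.43 in 5xFAD mice. The genotypes did not overlap in either sex, but the gap was 0.31 in females and 0.050 in males. The mean was 10.82 ± 0.10 in Plcg2+/- females and 11.41 ± 0.072 in 5xFAD females, and 11.14 ± 0.13 in Plcg2+/- males and 11.44 ± 0.042 in 5xFAD males (SD, n = 6 each). The differences were -0.59 ± 0.056 in females and -0.30 ± 0.056 in males (SE).

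Arpc2, one of the core subunits that hold the complex to the mother filament (chromosome 1, 74236490 to 74268209), differed least. Its level was 10.25 to 10.66 with a median of 10.30 in Plcg2+/- females, against 10.32 to 10.50 with a median of 10.42 in 5xFAD females. In males it was 10.54 to 10.93 with a median of 10.71 in Plcg2+/- mice, against 10.84 to 11.02 with a median of 10.97 in 5xFAD mice. The genotypes overlapped in both sexes. The differences were -0.04 ± 0.065 in females and -0.24 ± 0.065 in males (SE), and -0.10 and -0.29 without female 12 and male 3.

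Abi2 ran the other way in females. It lies on chromosome 1 (60405768 to 60481945). Its level was 10.62 to 10.95 with a median of 10.72 in Plcg2+/- females, against 10.40 to 10.55 with a median of 10.48 in 5xFAD females. In males it was 10.76 to 11.21 with a median of 10.85 in Plcg2+/- mice, against 10.82 to 11.00 with a median of 10.93 in 5xFAD mice. The genotypes did not overlap in females and overlapped in males. The differences were 0.27 ± 0.065 in females and -0.03 ± 0.065 in males (SE), and 0.22 and -0.09 without female 12 and male 3. Of 12 Plcg2+/- mice, 7 had more Abi2 than the same-sex 5xFAD mean, against 12 of 12 below that mean for Tmsb4x, Arpc1a and Arpc5l and 11 of 12 below that mean for Arpc2.

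Over the whole panel 60.5% of the 757 genes were called for the genotype difference over both sexes at an adjusted p under 0.05, 26.7% lower and 33.8% higher in Plcg2+/- mice. The median difference of all genes was 0.04. The share of genes without overlap, or with every Plcg2+/- mouse on the same side, was not counted. By size the difference of Tmsb4x ranked 27 of 757, that of Arpc5l 49, that of Arpc1a 124, that of Arpc2 466 and that of Abi2 502.

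The order of the 4 groups was not the same for each gene. Tmsb4x ran from Plcg2+/- females through Plcg2+/- males and 5xFAD males to 5xFAD females, and its only step without overlap lay between Plcg2+/- males and 5xFAD males. Arpc1a and Arpc5l ran from Plcg2+/- females through Plcg2+/- males and 5xFAD females to 5xFAD males. For Arpc1a the lowest step was without overlap, and for Arpc5l neighbouring groups overlapped at every step. Arpc2 ran from Plcg2+/- females to 5xFAD females, then Plcg2+/- males and 5xFAD males, with both groups of females below both groups of males but for Plcg2+/- female 12. Abi2 was lowest in 5xFAD females, which stood apart, and overlapped among the other 3 groups.

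Ratios between rows within a mouse are free of any scaling between mice. A ratio of 2 probes also holds their unequal capture, so only its differences between groups are read. The log2 ratio of Arpc1a to Arpc2 was 0.34 to 0.57 in Plcg2+/- females and 0.92 to 1.07 in 5xFAD females. It was 0.33 to 0.54 in Plcg2+/- males and 0.38 to 0.56 in 5xFAD males. The 5xFAD females thus stood alone, and the other 3 groups overlapped. The ratio of Arpc5l to Arpc2 averaged -0.94 ± 0.054 in Plcg2+/- females and -0.22 ± 0.15 in 5xFAD females, and -0.87 ± 0.16 in Plcg2+/- males and -0.60 ± 0.068 in 5xFAD males (SD, n = 6 each). The ratio of Tmsb4x to Arpc2 averaged 3.79 ± 0.24 in Plcg2+/- females and 4.70 ± 0.16 in 5xFAD females, and 3.66 ± 0.19 in Plcg2+/- males and 4.03 ± 0.074 in 5xFAD males. For these ratios the 5xFAD females, the group of lowest depth, lay highest. The ratio of Arpc5l to Arpc1a averaged -1.39 ± 0.11 in Plcg2+/- females and -1.23 ± 0.15 in 5xFAD females, and -1.30 ± 0.12 in Plcg2+/- males and -1.09 ± 0.11 in 5xFAD males. The part of depth in these differences was not tested.

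**Figure D2:**
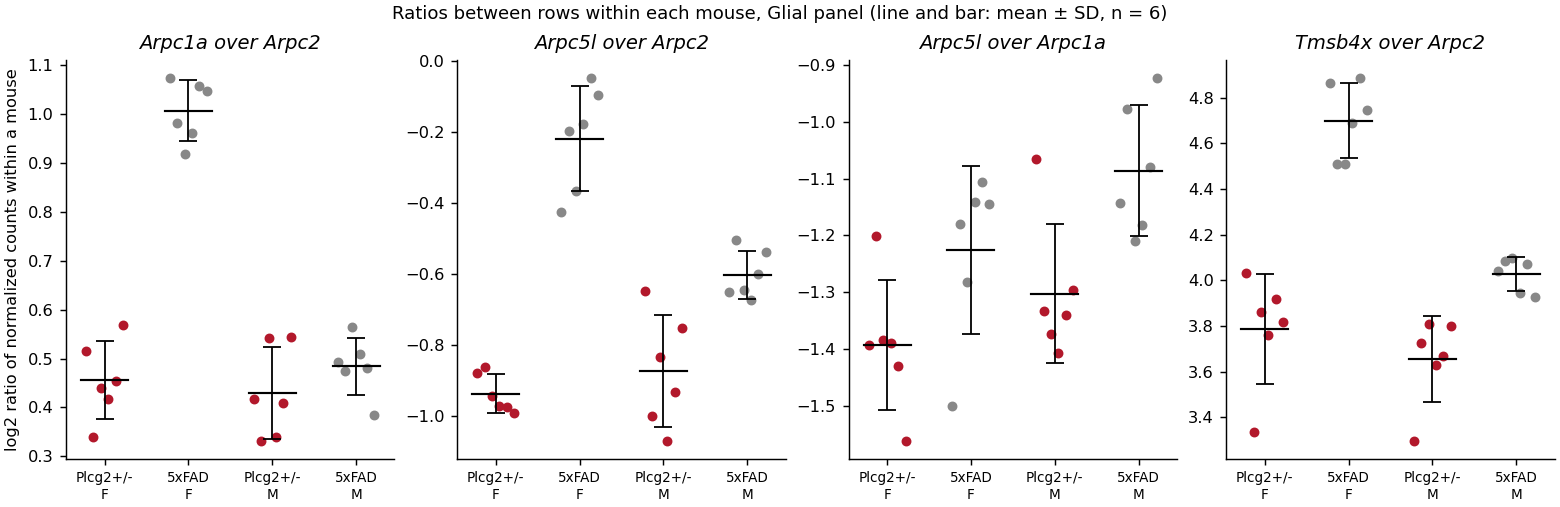
Log2 ratios between pairs of the rows within each mouse on the Glial panel, with the mean and SD of each group of 6. For Arpc1a over Arpc2 the 5xFAD females lie between 0.92 and 1.07 and all other mice between 0.33 and 0.57; the axes do not start at 0.

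Promoter sequences from RefSeq (GRCm38.p6) were held for 3 of the 5 genes and are shown as the regulatory sequence of rows that differed unequally between the genotypes. Each stretch is the 120 bases before the listed start site, 5′ to 3′ on the gene's strand. The start site is that of the promoter table, which for Tmsb4x and Arpc2 lies inside the gene bounds given above. Capitals mark matches on either strand to the motif of the factor NRF1 (GCGC, any base, TGCGC) or to the GC box GGGCGG.
Tmsb4x, chrX:167209219-167209338, minus strand: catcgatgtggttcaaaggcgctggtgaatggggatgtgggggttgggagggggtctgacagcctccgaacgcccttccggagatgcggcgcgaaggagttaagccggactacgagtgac
Arpc1a, chr5:145083749-145083868, plus strand: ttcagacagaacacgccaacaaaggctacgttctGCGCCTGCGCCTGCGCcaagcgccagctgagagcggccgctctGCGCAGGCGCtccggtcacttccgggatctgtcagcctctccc
Arpc2, chr1:74236397-74236516, plus strand: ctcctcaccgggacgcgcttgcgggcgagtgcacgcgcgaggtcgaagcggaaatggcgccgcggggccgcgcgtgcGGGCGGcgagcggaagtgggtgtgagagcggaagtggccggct
Arpc1a holds 3 matches to the NRF1 motif, 2 of them overlapping, at 86, 80 and 43 bases before the start. Over the 250 bases before the start, Arpc2 holds 1 match to it at 149 bases and Tmsb4x none, against 3.74% of 32851 mouse promoters with a match. GGGCGG occurs at 43 and 161 bases in Arpc2 and at 211 bases in Tmsb4x, and in 32.7% of all promoters. The CArG box of serum response factor, found in many actin genes, occurs in 1.47% of promoters and in none of the 3. The boxes TATAAA, held by 12.4% of promoters, and CCAAT, held by 33.8%, were also without a match in them.

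Whether the genotype difference differed between the sexes was tested. The genes were selected on the genotype differences in these same mice, with earlier results of these data known. This contrast is built from those differences in each sex. Its p-values for the 5 rows are therefore not independent of the choice and are given as a description. The difference in females minus that in males was -0.34 ± 0.10 for Tmsb4x (SE; limma adjusted p = 0.0217), -0.29 ± 0.080 for Arpc1a (adjusted p = 0.0116) and 0.30 ± 0.091 for Abi2 (adjusted p = 0.0227). The first 2 were lower in Plcg2+/- mice by more in females than in males, and the difference of Abi2 was 0.27 in females and -0.03 in males. For Arpc2 it was 0.20 ± 0.092 (adjusted p = 0.113) and for Arpc5l -0.24 ± 0.15 (adjusted p = 0.252), and neither passed. Over the panel 21.9% of the genes passed this test, 15.2% with a higher and 6.74% with a lower difference in females, and the median of all genes was 0.09. The call of Arpc1a held with median centring (-0.39, adjusted p = 0.00309) and quantile normalization (-0.33, adjusted p = 0.00948). That of Tmsb4x held with median centring (-0.43, adjusted p = 0.00543), but with quantile normalization the value was 0.015 (adjusted p = 0.911). Quantile normalization sets a level by its rank, and Tmsb4x ranked 2 in all 5xFAD females and 2 to 4 in 5xFAD males. The call of Abi2 was lost with both (0.20 each, adjusted p = 0.153 and 0.139). The depth of the genotypes did not overlap in females and overlapped in males, so in females depth and genotype cannot be told apart. The part of depth in these tests was not tested.

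**Figure D3:**
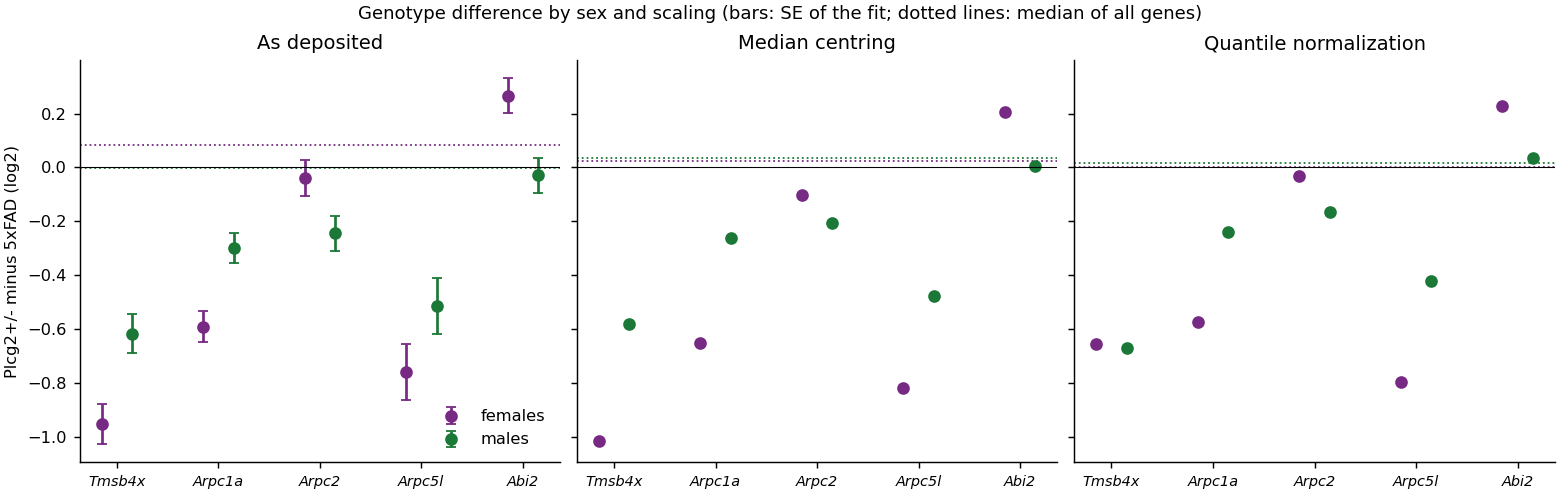
Difference between Plcg2+/- and 5xFAD mice on the log2 scale for females and males under the deposited scaling, median centring and quantile normalization, with the SE of the fit for the first. Tmsb4x, Arpc1a, Arpc2 and Arpc5l lie below 0 in both sexes throughout, and the distance between the sexes for Tmsb4x closes under quantile normalization. Dotted lines give the median of all 757 genes in each sex.

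The sex difference was also tested. The genes were chosen with earlier results of these data known, so that test is not fully independent of the choice either. Normalized values were lower in females across the panel: 81.2% of the genes were called, 76.2% lower in females and 5.02% higher, and the median difference of all genes was -0.27. Arpc2 was lower in females by more than that median, at -0.45 ± 0.046 (SE, adjusted p = 3.21e-08). Abi2 differed by -0.30 ± 0.046 (adjusted p = 4.93e-06), Arpc5l by -0.29 ± 0.073 (adjusted p = 0.00114) and Arpc1a by -0.18 ± 0.040 (adjusted p = 0.000445). The X-linked Tmsb4x differed by -0.05 ± 0.051 (adjusted p = 0.381). With each mouse centred on its median, which brought the median difference of all genes to -0.05, Arpc2 stayed lower in females (-0.23, adjusted p = 0.000428) and Tmsb4x was higher in females (0.17, adjusted p = 0.0157). Abi2 (-0.08, adjusted p = 0.184), Arpc5l (-0.07, adjusted p = 0.470) and Arpc1a (0.04, adjusted p = 0.476, with the sign turned) no longer passed. Quantile normalization left Arpc2 as the only one called (-0.21, adjusted p = 0.000571).

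Within the groups the 5 rows were compared mouse by mouse, with the group means taken out. The 3 Arpc rows and Abi2 varied together. In all 6 pairs among them Pearson's r lay between 0.72 and 0.87 and Spearman's rho between 0.52 and 0.72, over 24 mice (permutation of mice within groups, two-sided, largest adjusted p = 0.00395 for r and 0.0273 for rho over the 10 pairs). The closest pair was Arpc5l with Abi2, at r = 0.87 and rho = 0.72 (permutation adjusted p = 0.0003 and 0.0022). With quantile normalization all 6 pairs passed by r (largest permutation adjusted p = 0.0179). By rho, Arpc1a with Arpc2 (0.36), Arpc1a with Abi2 (0.47) and Arpc2 with Abi2 (0.40) then did not (permutation adjusted p = 0.148, 0.0717 and 0.0919). Genes outside the 5 rows lay closer still to Arpc5l, such as Dlat (r = 0.93) and Mmut (0.92). Varying together was thus not particular to these rows, and its extent over the panel was not counted. In each of the 6 pairs the 2 mice farthest from the median of the first gene were female 12 and male 3. Leaving them out brought r to between 0.40 and 0.70. With the group means taken anew without those mice, r was 0.66 for Arpc5l with Abi2 (permutation adjusted p = 0.013), and the other 5 pairs lay between 0.32 and 0.53 and did not pass by r (smallest adjusted p = 0.0507). By rho, Arpc1a with Arpc5l (0.57) and Arpc2 with Arpc5l (0.54) still passed (permutation adjusted p = 0.0358 each), and the pairs Arpc1a with Arpc2, Arpc1a with Abi2 and Arpc2 with Abi2 rested on these 2 mice.

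Over all 24 mice no pair with Tmsb4x passed on the deposited scale. With quantile normalization 1 did by rho, Tmsb4x with Abi2 (0.54, permutation adjusted p = 0.0484). As deposited, its r was 0.13 with Arpc1a (-0.07 without 5xFAD females 1189 and 1249, the farthest from the median of Tmsb4x), -0.15 with Arpc2, -0.03 with Arpc5l and -0.24 with Abi2, and its rho 0.29, -0.01, 0.16 and -0.07 (permutation adjusted p at least 0.316 for r and 0.294 for rho). In female 12 and male 3 Tmsb4x was the lowest of its group while the other 4 rows were the highest. Without these mice its r with Arpc1a was 0.68 and its rho 0.67 over 22 mice (permutation adjusted p = 0.013 and 0.0302). Leaving out 5xFAD females 1189 and 1249 as well gave r = 0.58. With Arpc5l r was 0.48 and rho 0.58 without female 12 and male 3 (permutation adjusted p = 0.166 and 0.0358).

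**Figure D4:**
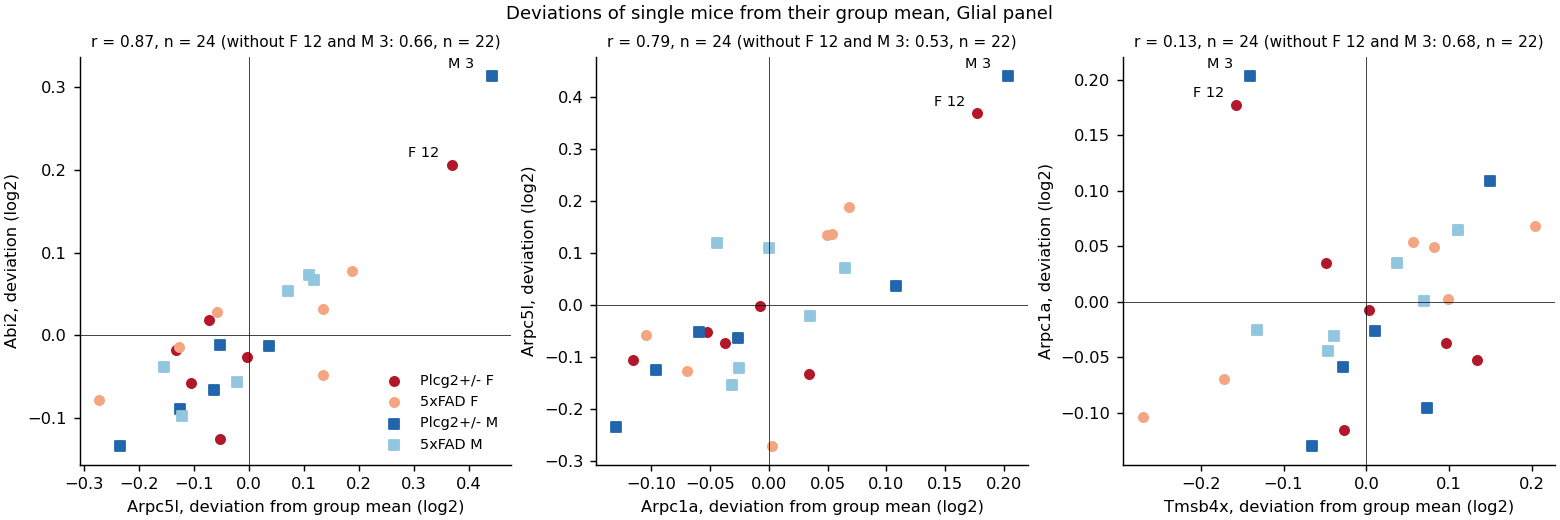
Deviation of each of 24 mice from the mean of its group, on the log2 scale, for Arpc5l and Abi2, Arpc1a and Arpc5l, and Tmsb4x and Arpc1a. Plcg2+/- female 12 and Plcg2+/- male 3 lie at the upper right in the first 2 plots, with r = 0.87 and 0.79 over all mice, and at the upper left in the third, where r is 0.13 with them and 0.68 without.

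The genes whose deviations lay closest to those of Tmsb4x, among 691 other genes with a mean of at least 20 normalized counts, were S100a10, the partner of annexin A2 (r = 0.82 over 24 mice), Psmd14, a deubiquitinase of the proteasome lid (0.80), Acot13, an acyl-CoA thioesterase (0.75), Txn1, encoding thioredoxin (0.74), and Atp5g3, a subunit of the ATP synthase ring (0.70). These 5 values lay between 0.68 and 0.80 without female 12 and male 3. At the other end were the kinase gene Nuak1 (-0.71), the cytokine gene Clcf1 (-0.61) and Camk2a, the calcium-dependent kinase of excitatory synapses (-0.61). Closest to Arpc5l were Dlat, of the pyruvate dehydrogenase complex (0.93), Mmut, encoding methylmalonyl-CoA mutase (0.92), the co-chaperone gene Sugt1 (0.90), Tmem47 (0.90) and Cul2, a scaffold of ubiquitin ligases (0.89). They lay between 0.75 and 0.83 without the 2 mice. Farthest from Arpc5l were Atrn (-0.87), Mtor, the growth kinase (-0.82), and Tanc2, a postsynaptic scaffold (-0.81). The panel runs of these mice and their normalization are not given, and the values are a description with no test.

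Other actin genes were taken from lists of 96 names, the 5 rows included. On the Glial panel 11 others were measured, of which 6 rose and 3 fell in Plcg2+/- mice, where 33.8% of all genes of the panel were higher and 26.7% lower, and their median difference was 0.13 against 0.04 for all genes. Of the 3 measured partners of ABI2 in the WAVE complex, 2 rose. Cyfip2 was 13.03 to 13.41 with a median of 13.28 in Plcg2+/- females, against 12.71 to 12.88 with a median of 12.77 in 5xFAD females. In males it was 13.17 to 13.71 with a median of 13.63 in Plcg2+/- mice, against 13.10 to 13.26 with a median of 13.22 in 5xFAD mice. Its genotypes were separate in females and overlapped in males through male 3. Over both sexes Cyfip2 rose by 0.42 ± 0.053 (SE, adjusted p = 1.08e-06, 11 of 12 mice) and Nckap1 by 0.27 ± 0.043 (adjusted p = 1.91e-05, 12 of 12). Wasf1 differed by 0.06 ± 0.038 (adjusted p = 0.169), and by 0.10 without female 12 and male 3, where it passed (adjusted p = 0.0103). It passed too without male 3 alone (0.084, adjusted p = 0.0251).

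Gsn, encoding gelsolin, which cuts and caps filaments, rose by 0.27 ± 0.068 (adjusted p = 0.00173, 10 of 12 mice). Diaph1, a formin that builds unbranched filaments, rose by 0.32 ± 0.041 (adjusted p = 1.31e-06) and the GTPase gene Rhob by 0.25 ± 0.058 (adjusted p = 0.000663), each in 11 of 12 mice. The difference of Rhob was 0.46 in females and 0.049 in males. Rock2, a kinase that RhoA activates, fell by 0.43 ± 0.075 (adjusted p = 5.86e-05) and Pak1, a kinase that Rac and CDC42 activate, by 0.21 ± 0.051 (adjusted p = 0.00133), each in 11 of 12. Cdc42, the GTPase that switches on N-WASP, fell by 0.15 ± 0.031 (adjusted p = 0.000266, 10 of 12), and its difference was -0.30 in females and -0.0017 in males. The exchange factor gene Tiam1 rose by 0.13 ± 0.054 in 7 of 12 mice (adjusted p = 0.0404), at 0.31 in females and -0.05 in males, a call that ended on leaving out any of 13 of the 24 mice (largest adjusted p = 0.0787, without 5xFAD female 1253), with median centring (adjusted p = 0.0648) and in a fit with the sexes pooled (adjusted p = 0.249). Sptan1, encoding the spectrin that lines the membrane skeleton, did not pass over both sexes (0.12 ± 0.065, adjusted p = 0.124). It differed by 0.51 in females and by -0.28 in males, and it passed without 5xFAD female 1189 (0.15, adjusted p = 0.0318).

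The Neuropathology panel held none of the 5 rows and 9 other actin genes, of which 4 rose and 3 fell, with a median difference of -0.10 against -0.01 for all 760 genes. On that panel 71.6% of the genes were called, 35.5% higher and 36.1% lower. Without female 12 and male 3, 5 of the 9 fell, but the share of all 760 genes that fell in that fit was not counted. The difference between the sexes in the genotype effect passed in 19.1% of that panel's genes, among them Rac1, Actn1 and Myh10. Gsn and Pak1 were on both panels. On the Neuropathology panel Gsn rose by 0.25 ± 0.059 (adjusted p = 0.000866) and Pak1 fell by 0.20 ± 0.047 (adjusted p = 0.000693), beside 0.27 and -0.21 in the same mice on the Glial panel. Pfn1, encoding profilin, which hands monomers to growing ends and competes with thymosin beta 4 for them, rose by 0.22 ± 0.045 (adjusted p = 0.000244, 11 of 12 mice). The membrane linker gene Msn (moesin) rose by 0.39 ± 0.078 (adjusted p = 0.00018, 12 of 12) while its relative Rdx (radixin) fell by 0.59 ± 0.18 (adjusted p = 0.00545, 10 of 12). For Rdx the difference was -0.23 in females, where it did not pass on its own (adjusted p = 0.354), and -0.95 in males. Myh10, a nonmuscle myosin, rose by 0.23 ± 0.033 (adjusted p = 5.88e-06, 9 of 12), with a difference of 0.47 in females and -0.019 in males. Actn1, the crosslinker alpha-actinin, differed by -0.14 ± 0.054 over both sexes, with 6 of 12 mice on that side (adjusted p = 0.0206). The directions were opposite, at 0.13 in females and -0.42 in males. Over both sexes it differed by -0.07 with median centring (adjusted p = 0.162) and by 0.019 with quantile normalization (adjusted p = 0.678). Rac1 (-0.10 ± 0.048, adjusted p = 0.0742) and Rhoa (-0.11 ± 0.076, adjusted p = 0.218) did not pass, and Rac1 lay at 0.12 in females and -0.31 in males. Both passed without female 12 and male 3 (-0.14, adjusted p = 0.000944, and -0.20, adjusted p = 0.000482). Rac1 passed without female 12 alone (adjusted p = 0.0488) or male 3 alone (adjusted p = 0.00286), and so did Rhoa (adjusted p = 0.0486 and 0.0281), while quantile normalization turned the sign of both (0.015 and 0.077). With the sexes pooled, Pak1 on either panel and Pfn1, Gsn, Myh10 and Actn1 on the Neuropathology panel did not pass (smallest adjusted p = 0.0630).

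**Figure D5:**
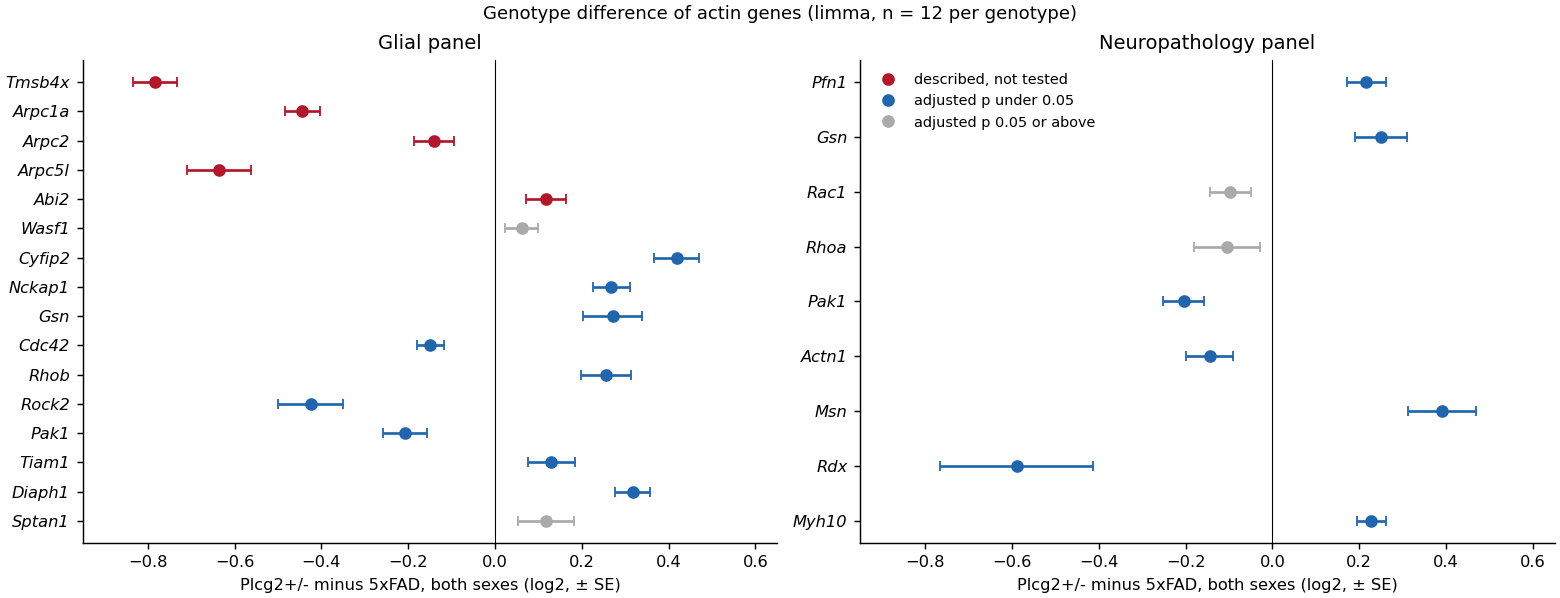
Difference between Plcg2+/- and 5xFAD mice over both sexes on the log2 scale, with the SE of the fit, for actin genes of the Glial panel and the Neuropathology panel (n = 12 per genotype). Tmsb4x, at -0.78, and Arpc5l, at -0.64, lie lowest on the Glial panel, and the WAVE partners Cyfip2 and Nckap1 lie at 0.42 and 0.27.

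Markers of the cell types in cortex were set beside these values, on the Glial panel. The counts that follow stand beside 33.8% of all genes higher and 26.7% lower. Of 17 microglia markers 3 rose and 5 fell in Plcg2+/- mice, and their summed level overlapped between the genotypes: 16943 to 20604 normalized counts in Plcg2+/- females and 15894 to 21428 in 5xFAD females, and 13694 to 17209 in Plcg2+/- males and 13486 to 17687 in 5xFAD males. Among the brightest of them, Ctss (0.02 ± 0.077, adjusted p = 0.862) did not pass and Tyrobp fell by 0.39 ± 0.076 (adjusted p = 0.000169). Of 12 markers of plaque-associated microglia 2 rose and 5 fell, with summed levels of 24338 to 31446 in Plcg2+/- females and 27384 to 34788 in 5xFAD females, and of 20480 to 27380 in Plcg2+/- males and 23017 to 29748 in 5xFAD males. Of 14 neuron markers 9 rose and 2 fell. Their summed level was 76203 to 85599 in Plcg2+/- females and 61153 to 72026 in 5xFAD females, without overlap, as for Abi2 and Cyfip2 in females, and 90224 to 106834 in Plcg2+/- males and 92490 to 96296 in 5xFAD males. Of the 3 brightest, Snap25 rose by 0.14 ± 0.050, Syt1 by 0.18 ± 0.045 and Syn1 by 0.33 ± 0.058, while Map2 (-0.27 ± 0.086) and Gria1 (-0.22 ± 0.046) were the 2 that fell, both named after their values were seen. The Neuropathology panel did not give the same picture in mice of the same numbers: of 12 neuron markers 3 rose and 6 fell, with a median difference of -0.16, and Syt1, also chosen so, fell by 0.63 ± 0.14 (adjusted p = 0.000385). On the Glial panel, of 7 astrocyte markers 3 rose and 1 fell, of 9 oligodendrocyte markers 2 rose and 2 fell, of 5 endothelial markers 1 rose and 3 fell, and all 4 markers of oligodendrocyte precursors and 7 of 11 lymphocyte markers rose. No marker was at 0 counts in all mice, and 10 of the 11 lymphocyte markers had a mean under 20 normalized counts. The part of the makeup of the tissue in the differences of the 5 rows was not tested.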

How the data were processed

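RNA from the cortex of 24 mice was run on 2 nCounter panels. The deposited values are log2 normalized counts, as read from the values themselves, with 757 genes on the Glial and 760 on the Neuropathology panel. How the authors normalized them is not given in the sources used here. For each sample all values were a whole number times 1 factor (tolerance 0.05), which gave the recovered counts. They serve only for depth and for 1 alternative. Each mouse is 1 sample, so p-values rest on the spread between mice.

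Group means for the 4 combinations of genotype and sex were fitted gene by gene on the log2 scale by limma (version 3.58.1, under R 4.3.3), with moderated variances. P-values were adjusted over all genes of a panel (Benjamini-Hochberg) and called under 0.05. Correlations used 100000 permutations of mice within groups (Python 3.11.15, scipy 1.17.1). On simulated data of 757 genes with normal noise the fit recovered 76.1% of sex differences of 0.25 and 97.0% of those of 0.5 on the log2 scale. For the difference between the sexes in the genotype effect it recovered 25.4% and 76.1%, so effects of that size can be missed.

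The members and gene lists were chosen with earlier results of these data known. Named genes were the members, actin-list genes on a panel (at most 8 per list), the 5 nearest and 3 farthest genes by r for Tmsb4x and Arpc5l, and the 3 brightest markers of a list where a result turned on it, except 1 marker that is not reported here. Other settings tried were quantile normalization, centring on the median, a minimum of 20 normalized counts, a trended robust prior, weights per array, voom on recovered counts, leaving out mice singly or female 12 with male 3, no sex term, and each sex alone.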

Additional observations from a re-analysis of the deposited data

Results flagged for a closer look

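Among the 5 rows and the other actin genes, 9 values lay far from the rest of their group of 6 mice by Dixon's test, out of 100 groups examined, where chance gives about 1 in 20. Plcg2+/- female 12 held 3 of them. Its Arpc2 was 10.66, where the next mouse of its group lay at 10.39, its Arpc5l was 9.79 against 9.42, and its Gsn on the Glial panel was 9.45 against 9.76. Plcg2+/- male 3 held 3 as well, with Abi2 at 11.21 against 10.88, Rock2 at 10.74 against 10.27 and Rac1 on the Neuropathology panel at 11.95 against 11.60. The others were Wasf1 in 5xFAD female 1253 (12.22 against 12.34), Pak1 on the Glial panel in 5xFAD female 1180 (12.14 against 12.33) and Rhoa in 5xFAD male 1270 (10.74 against 10.80). These are log2 normalized counts, and no cause of the departures was tested.

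The genotype difference in females differed from that in males, by limma with adjusted p under 0.05, for Tmsb4x (-0.34), Arpc1a (-0.29) and Abi2 (0.30) among the 5 rows. On the Glial panel it also did for Cdc42 (-0.30), Rhob (0.41), Tiam1 (0.36) and Sptan1 (0.79), and on the Neuropathology panel for Rac1 (0.43), Actn1 (0.55) and Myh10 (0.49). Over all genes it passed in 21.9% on the Glial panel and in 19.1% on the Neuropathology panel. The median of all genes for this difference was 0.09 on the Glial panel and 0.22 on the Neuropathology panel. With median centring that median was -0.01 and -0.07. By limma, Tmsb4x lost the call with quantile normalization (adjusted p = 0.911). Abi2 lost it with median centring and quantile normalization (adjusted p = 0.153 and 0.139).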

How the results depend on the processing

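The genotype differences of Tmsb4x, Arpc1a, Arpc2 and Arpc5l stayed below 0 under every alternative run. Taken in each sex alone they were -0.95 and -0.62 in females and males for Tmsb4x and -0.59 and -0.30 for Arpc1a. Abi2 was at 0.27 in females alone and -0.030 in males alone, a reversal, and between 0.09 and 0.13 on leaving out each mouse. For the sex difference, median centring moved Tmsb4x to 0.17, Arpc1a to 0.043, Arpc5l to -0.072 and Abi2 to -0.082. Quantile normalization moved Arpc1a to 0.045, Arpc5l to -0.078 and Abi2 to -0.061. For the interaction, quantile normalization gave 0.015 for Tmsb4x, -0.37 for Arpc5l, which then passed (adjusted p = 0.0477), and 0.20 for Abi2, and median centring 0.20 for Abi2. Arpc2 gave 0.19 without female 12 and male 3, where it passed (adjusted p = 0.0278), and 0.15 to 0.25 on leaving out each mouse, where only the fit without male 3 passed (adjusted p = 0.0305). Of the 6 pairs correlated by r, only Arpc5l with Abi2 still passed by r without female 12 and male 3. Tmsb4x with Arpc1a, not among the 6, then passed as well. Of other actin genes on the Glial panel 3 rose in males alone. On the Neuropathology panel 2 rose in males alone and 1 without a sex term. There 5 fell with array weights or without female 12 and male 3, 3 to 5 on leaving out each mouse (5 without female 12 or male 3), 1 without a sex term and 0 in females alone (limma, also 0 at an unadjusted p under 0.05). The share of all genes of a panel called in each of these alternative fits was not counted. These counts of actin genes therefore cannot be set against the panel. The causes were not tested beyond what is stated. No paired analysis was possible because the genotype groups and the sexes share no animal number, and the panels were not compared by a test. Counting error in a mouse was 0.055 or less on the log2 scale for the 5 rows. The gap between the genotypes was near that size for Arpc1a in males (0.050) and Abi2 in females (0.063).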
